A study of Mus musculus with 6 samples.

Results

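Neurocan and other matrix proteoglycans of the peripheral nerve are described here through 10 genes, Ncan, Bcan, Vcan, Acan, Cspg4, Cspg5, Dcn, Bgn, Lum and Sdc3, taken by symbol from the 24015 genes counted in every library. RNA-Seq was performed on sciatic nerves of mice at postnatal day 14, with 3 control and 3 cko libraries, each from a pool of 3 nerves. The control mice carried the genotype Rnf40 fl/fl, that is floxed alleles of the E3 ligase gene Rnf40 and no Cre. The cko mice carried the same floxed alleles together with the transgene Dhh::Cre, which is active in the Schwann cell lineage and served to delete Rnf40 there. According to the labels, all mice were of a mixed 129SvJ/C57Bl/6J background, whereas the methods of the study name C3H in place of 129SvJ; the statement is the same for all 6 libraries. The comparison asks how proteoglycan transcripts of the whole nerve differ when Schwann cells lack Rnf40, the partner of Rnf20 in monoubiquitinating histone H2B.

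Proteoglycans are core proteins that carry long sulfated sugar chains, and in nerve they fill the endoneurial matrix, coat collagen fibrils and sit in cell membranes. The lecticans neurocan, brevican, versican and aggrecan bind hyaluronan at one end and tenascins at the other, and neurocan and brevican are best known from the perineuronal nets and glial scars of the brain, where chondroitin sulfate restrains axon growth. Small leucine-rich proteoglycans such as decorin are products of fibroblasts that shape collagen fibrils, whereas syndecans carry heparan sulfate and act as co-receptors at the cell surface.

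The libraries held 1317167, 1992622 and 2468765 counts in control replicates 1, 2 and 3 and 2184268, 1459387 and 2186710 counts in cko replicates 1, 2 and 3. Levels are given as CPM, counts per 1000000 after scaling by TMM (a method that sets the bulk of genes equal between libraries), and 1 count corresponded to between 0.411 and 0.818 CPM. The libraries differed in composition, as the myelin transcripts that took up much of the control libraries were far lower in cko libraries. The summed level of 8 markers of myelinating Schwann cells was 147523 ± 9944 CPM in control and 36900 ± 1120 CPM in cko libraries (SD, n = 3 each). When libraries were scaled to their total counts instead, the median gene among those tested moved from a log2 fold change of -0.0024 to 0.26, and a value under that scaling has to be read against 0.26. Libraries of the same group differed by more than counting noise in every pair. Cko replicate 3 stood apart from the other cko libraries through skeletal muscle transcripts. The 7 muscle markers summed to 73.3 and 179 CPM in cko replicates 1 and 2 but to 2454 CPM in cko replicate 3, and to 3551, 2636 and 1960 CPM in the control libraries.

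Rnf40 itself was counted 82, 116 and 165 times in control and 109, 75 and 118 times in cko libraries, equal to 67.1, 65.1 and 73.1 CPM against 46.5, 46.6 and 48.5 CPM. All cko libraries lay below all control libraries. Rnf40 was lower by a log2 fold change of -0.54 (SE 0.14, adjusted p = 0.00243 in edgeR's quasi-likelihood test), and under total-count scaling the value was -0.27 with an adjusted p of 0.116. Transcript remained in cko nerves, in which cells outside the Schwann cell lineage keep the gene and the floxed part comprises only some of its exons. From RNA counts of whole nerve alone, fewer cells of a type and less RNA per cell cannot be told apart, for this gene and for all genes that follow. For Schwann cells the study counted cells on stained sections. It found their share of all nerve cells comparable between the genotypes at this age.

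Of the 10 members, 7 passed the filter on low counts and were tested. Ncan and Sdc3 were called higher in cko nerves, Vcan, Cspg4, Dcn and Bgn were called lower, Lum was not called, and Bcan, Acan and Cspg5 were too rare to be tested. Across all 11371 genes tested, 15.5% were called higher and 16.2% lower at an adjusted p of at most 0.05, that is 1757 and 1841 genes. Under total-count scaling the split was 3740 higher and 886 lower genes (32.9% and 7.79%), and the members then counted 3 higher (Ncan, Lum and Sdc3) and 2 lower (Vcan and Bgn). Ncan passed the filter through its cko libraries alone, and no test over the members as a group was made.

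Among the lecticans, Ncan changed from near absence to a clear signal. The control libraries held 0, 4 and 1 counts of Ncan, and the cko libraries 125, 77 and 118. In CPM these were 0, 2.24 and 0.443 against 53.3, 47.8 and 48.5. The 3 cko libraries lay close together, far above every control library, and 4 of the 5 control counts came from replicate 2. The log2 fold change of Ncan was 5.62 (SE 0.36, adjusted p = 1.7e-15). Taken from the pooled counts (5 in control, 320 in cko) and the library sizes, the ratio was 52.7 with a 95% exact interval from 22.3 to 163 that covers counting error only. The size of the change depended on control replicate 2, without which the log2 fold change was 7.16, and on the method, as DESeq2 with its prior, which draws large changes of low counts towards 0, gave 4.14. Ncan lies at chr8:72616984-72644772 on the minus strand of mm9, with 15 merged exons of 7195 bases in all, and no other annotated gene overlaps it.

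The promoters of Ncan and Sdc3, called higher, and of Vcan, Cspg4 and Bgn, called lower, are shown to let their sequences be compared. They are RefSeq sequences of GRCm38.p6, from 250 bases before to 50 bases after the gene start, read 5′ to 3′ on the strand of the gene, and 7 of the 10 members were matched, Dcn, Lum and Cspg5 not among them. Capitals mark matches on either strand to 5 motifs. The core of the EGR motif was searched as GTGGGCG and the motif of SOX factors as AACAAT. The GC box was searched with the letters GGGCGG, which can overlap the EGR core, the E-box with the letters CACGTG and the TATA box with the letters TATAAA.
Ncan, chr8:70120795-70121094, minus strand: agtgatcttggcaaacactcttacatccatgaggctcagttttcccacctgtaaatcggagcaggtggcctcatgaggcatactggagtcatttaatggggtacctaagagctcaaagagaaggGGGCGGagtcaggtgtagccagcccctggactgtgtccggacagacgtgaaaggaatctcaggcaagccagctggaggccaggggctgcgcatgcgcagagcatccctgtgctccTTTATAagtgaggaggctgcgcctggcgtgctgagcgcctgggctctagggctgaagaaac
Sdc3, chr4:130792287-130792586, plus strand: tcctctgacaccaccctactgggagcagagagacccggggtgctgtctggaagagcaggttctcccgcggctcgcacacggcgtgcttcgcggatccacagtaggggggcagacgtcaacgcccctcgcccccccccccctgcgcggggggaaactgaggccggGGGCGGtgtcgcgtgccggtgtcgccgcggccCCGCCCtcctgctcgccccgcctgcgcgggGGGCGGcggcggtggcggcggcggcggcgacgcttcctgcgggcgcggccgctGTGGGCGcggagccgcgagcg
Vcan, chr13:89742463-89742762, minus strand: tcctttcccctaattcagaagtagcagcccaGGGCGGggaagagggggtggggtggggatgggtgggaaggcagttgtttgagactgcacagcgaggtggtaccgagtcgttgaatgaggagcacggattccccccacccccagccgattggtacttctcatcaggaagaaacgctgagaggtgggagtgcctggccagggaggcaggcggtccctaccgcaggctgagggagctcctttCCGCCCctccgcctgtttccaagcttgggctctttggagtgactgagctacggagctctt
Cspg4, chr9:56864854-56865153, plus strand: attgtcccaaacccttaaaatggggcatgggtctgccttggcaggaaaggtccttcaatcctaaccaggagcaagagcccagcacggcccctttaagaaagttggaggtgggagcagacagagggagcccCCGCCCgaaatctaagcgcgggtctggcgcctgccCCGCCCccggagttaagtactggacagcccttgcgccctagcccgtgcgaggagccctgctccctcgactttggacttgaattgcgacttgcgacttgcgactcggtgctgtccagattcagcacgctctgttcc
Bgn, chrX:73483351-73483650, plus strand: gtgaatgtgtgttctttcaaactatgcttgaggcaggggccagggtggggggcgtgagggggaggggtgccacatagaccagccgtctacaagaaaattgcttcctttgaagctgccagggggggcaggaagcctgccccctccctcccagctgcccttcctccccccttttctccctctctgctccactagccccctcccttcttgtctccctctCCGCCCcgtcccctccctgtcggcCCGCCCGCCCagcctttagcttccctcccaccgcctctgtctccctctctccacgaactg
The GC box was found in all of the promoters printed, and it occurs in 35.7% of the 32851 promoters of this length. The promoter of Ncan held 1 GC box, 1 TATA box on the opposite strand with its leftmost base at position -11 from the gene start, and none of the other motifs. The TATA box occurs in 13.6% of promoters. Sdc3 held 3 GC boxes and the EGR core at position 30, a motif found in 7.97% of promoters, whatever their content of G and C. Of the matched members not printed, Acan also held the EGR core, on the opposite strand at position -6, and Bcan did not. Vcan and Cspg4 held 2 GC boxes each and Bgn 3, and none of these carried the EGR core, the SOX motif (10.7% of promoters) or the E-box (7.15%). The content of G and C was 56.7% for Ncan, 77.7% for Sdc3, 61.0% for Vcan, 60.0% for Cspg4 and 63.7% for Bgn. A match is no more than a run of letters, and the counts hold no measurement of these promoters.

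Bcan, the gene of brevican and like neurocan a lectican of the brain, had 0, 3 and 1 counts in control and 8, 4 and 7 counts in cko libraries. Each cko library exceeded each control library, by a single count at the closest. The ratio of the pooled counts was 3.91 with a 95% exact interval from 1.30 to 15.8, again for counting error only. Bcan did not pass the filter, and when no filter was applied its adjusted p was 0.0956. Acan, the gene of aggrecan and the major proteoglycan of cartilage, was counted 1, 2 and 2 times in control and 0, 0 and 1 times in cko libraries. In CPM each cko library lay below each control library, but the ratio of the pooled counts was 0.165 with a 95% exact interval from 0.00348 to 1.47, and without a filter the adjusted p was 0.332. With at most 2 counts in any library, a change of Acan was not shown at this depth. Bcan lies at chr3:87791453-87804278 on the minus strand and Acan at chr7:86198369-86259985 on the plus strand of mm9.

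Vcan encodes versican, the lectican of connective tissue, and moved in the opposite direction to Ncan. It was counted 110, 135 and 174 times in control libraries (90.0, 75.8 and 77.1 CPM) and 127, 83 and 121 times in cko libraries (54.2, 51.5 and 49.7 CPM). Cko libraries lay below all control libraries. The log2 fold change was -0.63 (SE 0.13, adjusted p = 0.000293). Under total-count scaling it was -0.37, still called at an adjusted p of 0.0278, with the median gene at 0.26. Set against Vcan within the same library, a ratio that no scaling alters, Ncan amounted to 0, 2.96 and 0.575 counts per 100 Vcan counts in control and to 98.4, 92.8 and 97.5 in cko libraries. Hence the 2 lectican transcripts were about equally often counted in cko nerves, although the Vcan gene, at chr13:89794915-89882117 on the minus strand of mm9, has the longer transcript with 14467 bases of merged exons. Per kb of exon, Vcan stood at 5.60 ± 0.542 CPM in control and 3.58 ± 0.154 CPM in cko libraries (SD, n = 3), and Ncan at 0.125 ± 0.165 and 6.93 ± 0.416 CPM. The order of these lecticans was thus exchanged, without overlap between the genes in either group.

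The transmembrane proteoglycans were Cspg4 and Cspg5. Cspg4, also called NG2 and found on pericytes and on fibroblasts of the nerve, had 148, 170 and 223 counts in control (121, 95.4 and 98.9 CPM) and 158, 110 and 189 counts in cko libraries (67.4, 68.3 and 77.7 CPM). The groups did not overlap. The log2 fold change of Cspg4 was -0.54 (SE 0.12, adjusted p = 0.000606); under total-count scaling it was -0.28, no longer called at an adjusted p of 0.0738, with the median gene at 0.26. Of 8 markers of pericytes or smooth muscle 5 were called lower. The ratio of Cspg4 to the pericyte receptor gene Pdgfrb was 41.4 ± 6.43 per 100 in control and 44.1 ± 3.59 per 100 in cko libraries. These ratios overlapped (two-sided exact permutation p = 0.6), in a test that cannot go below 0.1 with 3 against 3 libraries and so cannot show that the 2 genes changed alike. Cspg5, a neural proteoglycan with an EGF-like domain, had 4, 5 and 4 counts in control and 2, 8 and 14 counts in cko libraries. The cko libraries lay on both sides of the control libraries, and the ratio of the pooled counts was 1.52 with a 95% exact interval from 0.744 to 3.25. Both genes lie on chromosome 9 of mm9, Cspg4 at chr9:56712911-56747677 and Cspg5 at chr9:110146287-110165079 on the plus strand.

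Dcn, Bgn and Lum, the genes of the collagen-binding decorin, biglycan and lumican, did not move together. Per kb of exon they were the 3 most abundant members in both groups, while in CPM Sdc3 exceeded Lum in both. Dcn was counted 4603, 6725 and 8555 times in control and 7744, 4933 and 7492 times in cko libraries, which gave 3765, 3774 and 3793 CPM against 3302, 3063 and 3079 CPM. The control libraries were nearly identical and all cko libraries lay below them. The log2 fold change was -0.26 (SE 0.07, adjusted p = 0.00382). This small difference rested on the scaling, as under total counts the value was 0.0024 with an adjusted p of 0.982, below the median gene at 0.26.

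Bgn stood at 976, 860 and 954 CPM in control and at 677, 608 and 693 CPM in cko libraries. It fell in all cko libraries, with a log2 fold change of -0.49 (SE 0.09, adjusted p = 1.76e-05). Under total-count scaling the value was -0.23, still called at an adjusted p of 0.0292, with the median gene at 0.26. Lum stood at 439, 382 and 430 CPM in control and at 454, 469 and 440 CPM in cko libraries. The lowest cko and the highest control library differed by less than 1 CPM, and Lum was not called (log2 fold change 0.12, SE 0.09, adjusted p = 0.314). Under total-count scaling Lum passed the threshold with 0.39 and an adjusted p of 0.000788. In mm9, Dcn lies at chr10:96942245-96980777 and Lum at chr10:97028135-97035337, neighbours on the plus strand of the same chromosome, and Bgn at chrX:70728941-70741272, also on the plus strand.

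Ratios within a library showed the divergence of these genes without any scaling between libraries. Lum amounted to 45.0, 44.5 and 45.0 counts per 100 Bgn counts in control and to 67.0, 77.2 and 63.5 in cko libraries. The control libraries agreed closely, and all cko libraries were higher. Per 100 Dcn counts, Lum rose from 11.0 ± 0.809 to 14.4 ± 0.806 and Bgn fell from 24.6 ± 1.64 to 20.9 ± 1.39 (SD, n = 3), again with no overlap. For each of these 3 ratios the two-sided exact permutation p was 0.1, the smallest that 3 against 3 libraries can give. The ratios were chosen after the data had been seen.

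Sdc3, the gene of the heparan sulfate proteoglycan syndecan-3 of neural tissue, was the other member called higher. It was counted 551, 889 and 1089 times in control and 1489, 1173 and 1606 times in cko libraries, equal to 451, 499 and 483 CPM against 635, 728 and 660 CPM. Every cko library lay above every control library. The log2 fold change was 0.50 (SE 0.09, adjusted p = 2.63e-05). Relative to Dcn, Sdc3 amounted to 12.6 ± 0.629 counts per 100 in control and 21.5 ± 2.28 counts per 100 in cko libraries. Sdc3 lies at chr4:130348452-130382234 on the plus strand of mm9, and 48 of its 5989 exonic bases are shared with the transcript Gm12970 on the opposite strand. The strand setting of the counting is not given in the sources used here, so that reads from these 48 bases cannot be assigned to either gene with certainty.

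**Figure D1:**
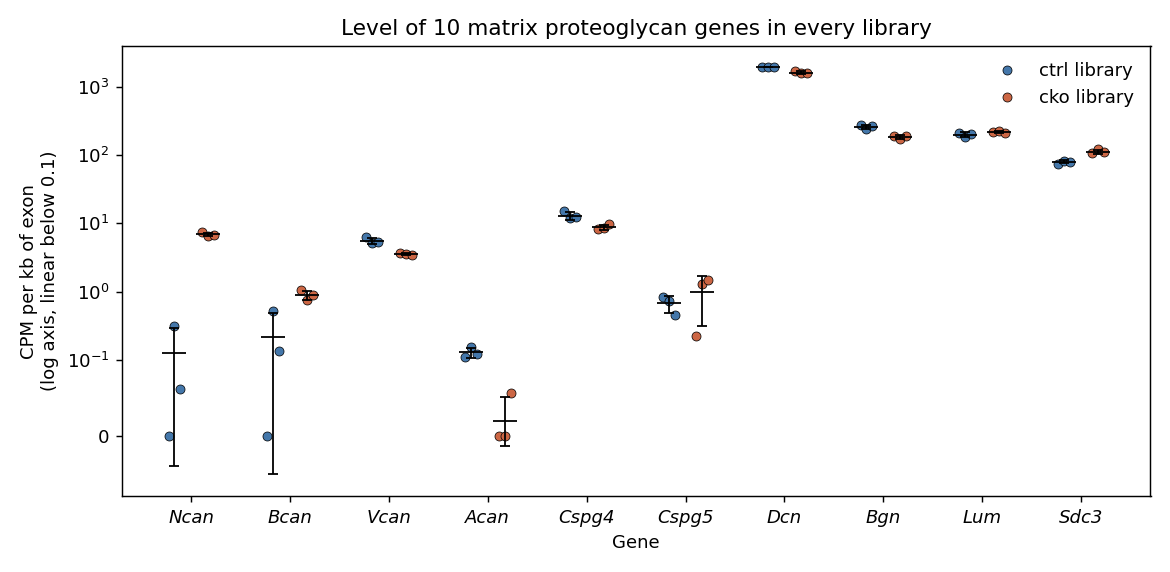
Level of the 10 member genes in CPM per kb of merged exon on a log axis that is linear below 0.1, for 3 control (blue) and 3 cko (orange) libraries; points are libraries, and black marks give the mean ± SD. Ncan rises from at most 0.312 to at least 6.65 CPM per kb, whereas Dcn lies between 1581 and 1958.

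Compared per kb of exon, the plot of levels by library spans a wide range. In control nerves Dcn led with 1950 CPM per kb, followed by Bgn (261), Lum (201), Sdc3 (79.7), Cspg4 (13.1) and Vcan (5.60), and no neighbours in this order overlapped. Cspg5, Bcan, Acan and Ncan came last with 0.676, 0.217, 0.128 and 0.125 CPM per kb, and each overlapped with its neighbour. In cko nerves the order was Dcn (1625), Lum (219), Bgn (185), Sdc3 (113), Cspg4 (8.83), Ncan (6.93) and Vcan (3.58), again without overlap between neighbours. Cspg5 (0.997) and Bcan (0.895) overlapped with each other, and Acan was last at 0.0186 CPM per kb. Thus Lum and Bgn exchanged places, and with the longest transcript as length they did not, as Bgn then stood at 391 CPM per kb in control and 277 in cko libraries and Lum at the values above. Ncan moved from among the rarest members to the sixth place. Of the summed level of the 10 members, Dcn held on average 77.7% in control and 75.1% in cko libraries, and Sdc3 held 3.18% and 5.22%. Ncan contributed 0.00501% in control and 0.320% in cko libraries.

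**Figure D2:**
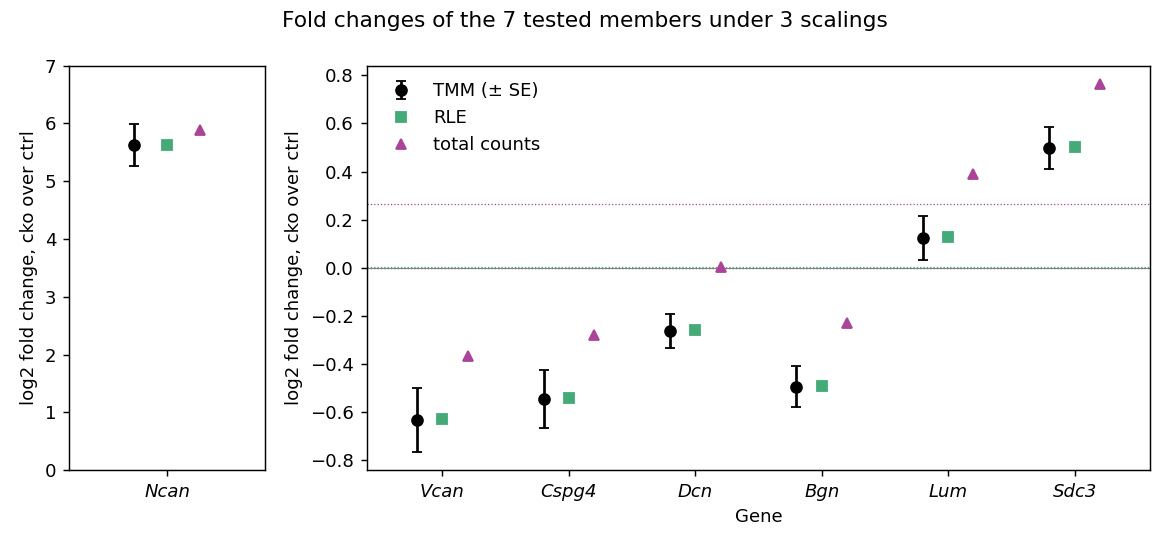
Log2 fold change (cko over control) of the 7 tested members under scaling by TMM (circles, ± SE), RLE (squares) and total counts (triangles), with Ncan on an axis of its own; dotted lines mark the median of all tested genes under each scaling. Ncan and Sdc3 are above and Vcan, Cspg4 and Bgn below 0 under each scaling, whereas Dcn moves from -0.26 with TMM to 0.0024 with total counts.

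The members of connective tissue were next set beside the markers of other cells of the nerve. Of 12 fibroblast markers tested, 9 were called lower, with a median log2 fold change of -0.45 (-0.19 with 5 called lower under total-count scaling). Their summed level was 50634, 49309 and 53655 CPM in control and 37135, 35749 and 35190 CPM in cko libraries, with Col3a1 as the most abundant gene at 25345 ± 970 and 18092 ± 806 CPM. Of 8 markers of pericytes or smooth muscle, 5 were lower, with a median of -0.58, and their sum was 1086, 801 and 938 CPM in control and 587, 579 and 700 CPM in cko libraries. The part of these cells in the lower level of Vcan, Cspg4, Dcn and Bgn was not tested, but each member can be expressed per 1000 counts of the fibroblast markers in its own library, a measure added after the data had been seen.

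The marker sum was lower in cko libraries, and division by it moves every gene upwards. The median gene tested stood at a log2 ratio of 0.50, and 55.2% of the genes tested were higher in every cko than in every control library, so that a value on this measure has to be read against 0.50. Bgn amounted to 18.2 ± 0.976 counts per 1000 fibroblast marker counts in control and 18.3 ± 1.34 in cko libraries (SD, n = 3), Vcan to 1.58 ± 0.174 and 1.44 ± 0.0229, and Cspg4 to 2.06 ± 0.294 and 1.98 ± 0.205. For these 3 genes the groups overlapped. Dcn stood at 88.9, 85.7 and 87.5 in cko and 74.4, 76.5 and 70.7 in control libraries, a log2 ratio of 0.24 that lay below the median gene. Lum stood at 12.6 ± 0.468 against 8.14 ± 0.477, Sdc3 at 18.7 ± 1.64 against 9.34 ± 0.676 and Ncan at 1.38 ± 0.0492 against 0.0179 ± 0.0242, without overlap. The exact permutation p of Dcn, Lum, Sdc3 and Ncan was 0.1 each, the smallest possible, and that of Bgn was 0.9, of Vcan 0.3 and of Cspg4 0.6. Since the marker sum consists largely of collagen transcripts, the measure compares the members with collagen genes and does not count cells.

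**Figure D3:**
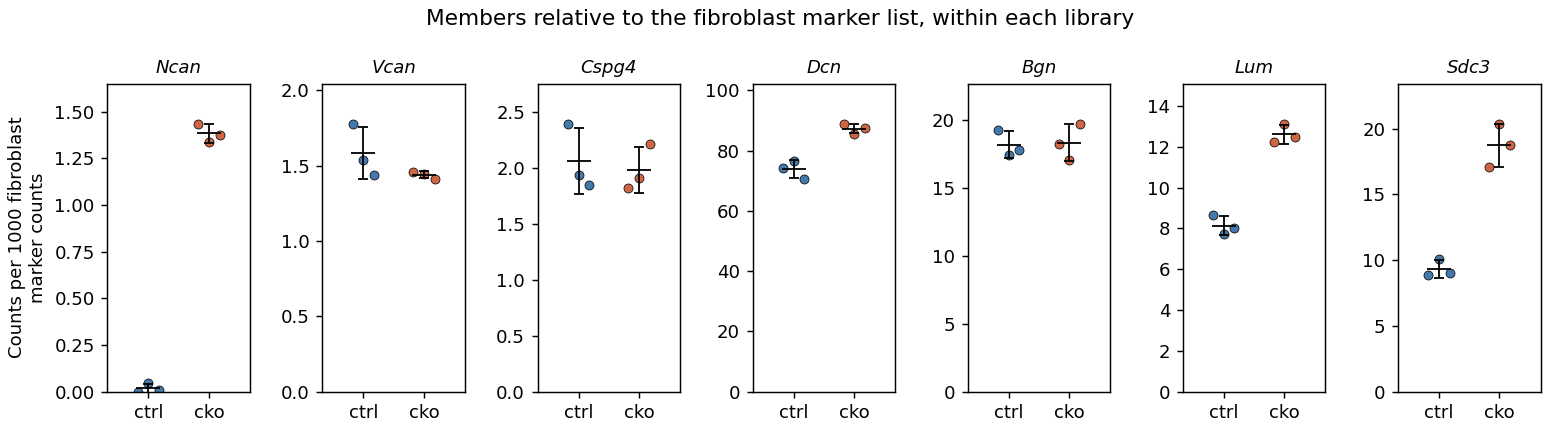
Counts of the 7 tested members per 1000 summed counts of 12 fibroblast markers in the same library, in 3 control (blue) and 3 cko (orange) libraries, with the mean ± SD in black and each axis starting at 0. The groups overlap for Vcan, Cspg4 and Bgn, and the cko libraries are higher for Ncan, Dcn, Lum and Sdc3, on a measure that shifts the median gene by 0.50 on the log2 scale.

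Markers of Schwann cells were called lower in 5 of 6 cases and higher in 1 (median -0.73), and their sum was 3352 ± 266 CPM in control and 2060 ± 119 CPM in cko libraries. Of the 8 markers of myelinating Schwann cells, 7 were lower and 1 higher (median -2.01). Of 9 tested markers of immature, promyelinating or repair Schwann cells, 5 were higher and 2 lower (median 1.16); they summed to 773, 805 and 746 CPM in control and 1492, 1856 and 1495 CPM in cko libraries. Pou3f1, a transcription factor of promyelinating cells, was the most abundant of them at 195 ± 22.7 and 804 ± 151 CPM. Gfap, among those called higher, passed the filter on low counts through its cko libraries alone. The summed level of this list was thus higher in cko libraries, as Ncan and Sdc3 were, whereas its genes L1cam (-1.87) and Ngfr (-0.90) were called lower. The part of these cells in the change of Ncan and Sdc3 was not tested.

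Ncan and Bcan are also made by neurons and glia of the brain, and Acan by cartilage, so that markers of these tissues were examined. Neuronal markers summed to 32.5 ± 2.04 CPM in control and 32.2 ± 4.07 CPM in cko libraries (exact permutation p = 1), with Nefh as the most abundant; 1 of 3 tested was called higher by edgeR (median -0.59) and 0 by DESeq2. The gene called was Snap25, with 3, 6 and 8 counts in control and 23, 13 and 23 in cko libraries. It passed the filter on low counts through its cko libraries alone. Of the markers of oligodendrocytes, their precursors and astrocytes, Olig1 and Olig2 had 0 counts in every library. Of the other markers in that list 4 were tested, of which 1 was higher and 3 were lower (median -0.32), with Pdgfra, a gene also expressed by fibroblasts, as the most abundant and a sum of 389 ± 14.1 against 347 ± 10.4 CPM. DESeq2 called 1 gene of this list, and Gja1, among the lower genes, had libraries that overlapped. Cartilage markers summed to 23.5 ± 4.49 CPM in control and 47.9 ± 3.07 CPM in cko libraries, led by Col11a2, with 3 of 4 tested called higher (median 0.95), 1 of them Col2a1 with libraries that overlapped (adjusted p = 0.0491), and DESeq2 called 1 gene of the list. Hapln1, also among the genes called higher, passed the filter on low counts through its cko libraries alone. The cartilage matrix genes Matn1 and Chad had 0 counts in every library. Perineurial markers were lower in 4 of 6 cases (median -0.47, led by Itgb4, sum 1071 ± 73.7 against 611 ± 55.6 CPM). Much of the drop in this sum came from Itgb4, at 462 ± 38.0 CPM in control and 143 ± 20.2 CPM in cko libraries. The study lists Itgb4 among genes with both less monoubiquitinated H2B and lower expression after deletion in Schwann cells. The part of Schwann cells in this sum was not tested. Endothelial markers were lower in 4 of 6 (median -0.54, led by Cdh5, sum 651 ± 43.6 against 461 ± 50.0 CPM) and macrophage markers in 4 of 6 tested (median -0.54, led by Csf1r, sum 315 ± 34.6 against 214 ± 6.31 CPM). By staining, the study in contrast counted a larger share of Iba1-positive macrophages in mutant nerves at this age. Aif1, the gene of Iba1, had at most 3 counts in any library and was not tested. Under total-count scaling, where 7.79% of all genes were lower, 3 perineurial, 1 endothelial, 2 macrophage and 1 adipocyte markers were called lower, and of the oligodendrocyte and astrocyte list 1 gene was higher and 0 were lower. Adipocyte markers were lower in 2 of 5 cases (median -0.65, led by Fabp4, sum 1013 ± 267 against 730 ± 127 CPM), and of the 7 muscle markers, led by Myh4, 0 were called by edgeR (median -1.36), 0 at an unadjusted p of at most 0.05 and 0 by DESeq2. Without cko replicate 3 the log2 fold changes were 5.65 for Ncan, 0.52 for Sdc3, -0.59 for Vcan and -0.60 for Cspg4, all still called, but this comparison sets muscle-rich control libraries against muscle-poor cko libraries. The part of muscle in the members' changes was not tested.

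**Figure D4:**
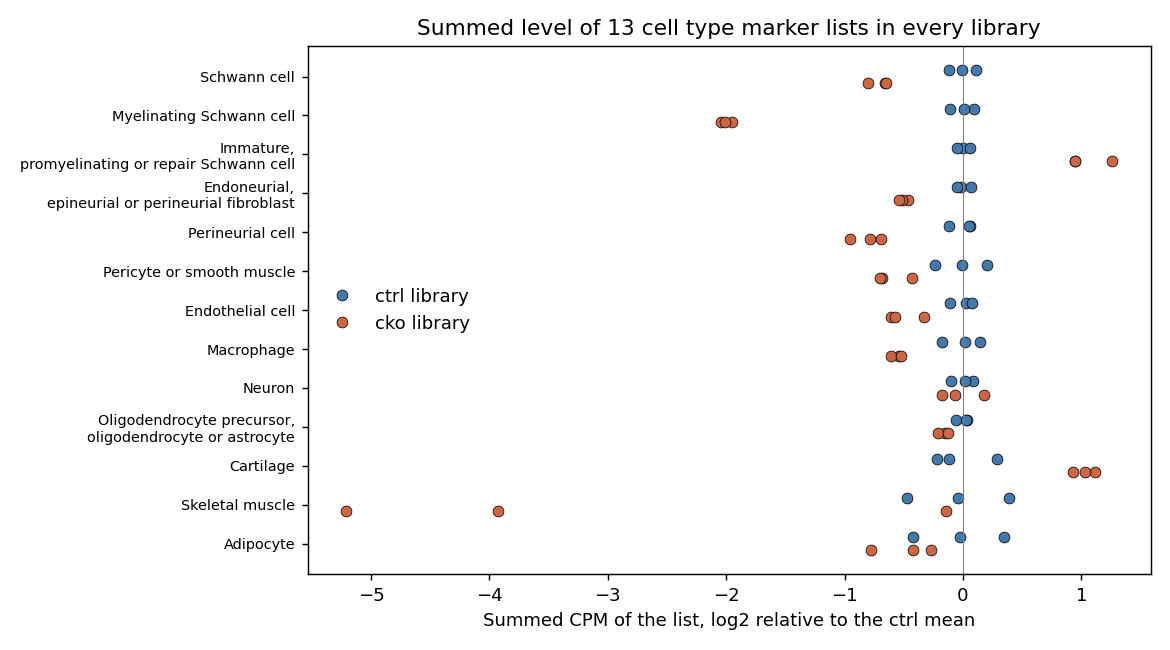
Summed CPM of 13 marker lists in each of 3 control (blue) and 3 cko (orange) libraries, as log2 relative to the mean of the control libraries. The lists of immature Schwann cells and cartilage are higher in the cko libraries, most others are lower, and skeletal muscle separates cko replicate 3 (2454 CPM) from cko replicates 1 and 2 (73.3 and 179 CPM).

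Partners of the lecticans, among them hyaluronan synthases, link proteins and tenascins, were represented by 13 tested genes, of which 4 were higher and 2 lower, with a median of 0.09 beside -0.0024 for all genes. For this and the lists that follow, the shares over all tested genes were 15.5% higher and 16.2% lower, or 32.9% and 7.79% under total-count scaling, and the counts of called genes were not tested against them. Under total-count scaling 5 partners were higher and 1 was lower. Tnc, the gene of the neurocan ligand tenascin-C, was counted 78, 95 and 127 times in control and 349, 284 and 436 times in cko libraries. Its log2 fold change was 1.55 (SE 0.12, adjusted p = 2.17e-13). Fbln2, the gene of the lectican-binding fibulin-2, rose from 300 ± 26.9 to 598 ± 55.1 CPM, and Itih5, of the family that binds hyaluronan, from 671 ± 30.3 to 936 ± 95.7 CPM. Hapln1, a link protein gene also listed for cartilage, had 1, 3 and 4 counts in control and 17, 16 and 14 counts in cko libraries (log2 fold change 2.25, SE 0.51). Like Ncan, Hapln1 passed the filter on low counts through its cko libraries alone. Tnxb, the gene of tenascin-X, fell from 616 ± 41.6 to 341 ± 32.6 CPM, and Hyal1, a hyaluronidase gene, from 17.5 ± 4.19 to 10.4 ± 1.90 CPM. The call of Hyal1 was lost without control replicate 3, cko replicate 1 or cko replicate 3 (adjusted p = 0.229, 0.0628 and 0.0766), in DESeq2 and under total-count scaling.

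The other small leucine-rich proteoglycans were examined beside Dcn, Bgn and Lum. Of 8 tested genes, 5 were lower and 1 was higher, with a median of -0.54 (-0.27 under total-count scaling, with 4 lower and 1 higher and the median gene at 0.26). Ogn, the gene of osteoglycin, was counted 2965, 5638 and 6336 times in control and 1808, 1220 and 1724 times in cko libraries, a log2 fold change of -1.91 (SE 0.09, adjusted p = 7.11e-20). Per 100 Dcn counts Ogn stood at 64.4, 83.8 and 74.1 in control and 23.3, 24.7 and 23.0 in cko libraries, so that it fell much further than Dcn. Aspn (-0.67), Fmod (-0.65) and Prelp (-0.43), which encode asporin, fibromodulin and prolargin, were lower as well. Prelp was not called under total-count scaling (adjusted p = 0.178). Epyc, the gene of epiphycan, was called higher with 0.56 (adjusted p = 0.0426), but its libraries overlapped between groups. Leaving out control replicate 2 or 3 or cko replicate 2 or 3 ended that call (adjusted p = 0.321, 0.118, 0.129 and 0.077), and so did DESeq2, the replicate block and a fit without robust estimation.

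Among 19 tested genes of other cell surface and basement membrane proteoglycans, 4 were higher and 6 lower, with a median of -0.22 that turned to 0.05 under total-count scaling, with 7 higher and 4 lower. Ptprz1, the gene of the receptor phosphatase whose secreted form is phosphacan, was counted 19, 22 and 32 times in control and 157, 85 and 177 times in cko libraries (log2 fold change 2.21, SE 0.19, adjusted p = 5.61e-12). Every cko library held a multiple of the control counts. The testican genes Spock1 and Spock3 rose by 1.80 and 1.42 on the log2 scale, and Sdc4, a syndecan gene like Sdc3, rose by 1.06. The 4 named among the lower genes were Cd74 (-0.89), a chain of antigen presentation that can carry chondroitin sulfate, the glypican genes Gpc1 (-0.80) and Gpc6 (-0.67), and Agrn (-0.55), the gene of agrin.

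Enzymes that build the sugar chains were examined next. For the linker and for chondroitin or dermatan sulfate, 20 genes were tested, of which 3 were higher and 5 lower (median -0.23; under total-count scaling 3 higher, 1 lower and 0.03). Ust, a uronyl sulfotransferase gene, rose from 88.0 ± 9.20 to 192 ± 20.9 CPM, and Chsy3, a chondroitin synthase gene, from 4.94 ± 2.03 to 23.7 ± 10.5 CPM. Chsy1, of the same family, rose by 0.48. The sulfotransferase genes Chst3 (-0.73), Chst12 (-0.59) and Chst14 (-0.68) and the xylose kinase gene Fam20b (-0.31) were lower. Chst12, Chst14 and Fam20b lost their calls under total-count scaling (adjusted p = 0.0807, 0.192 and 0.767). DESeq2 did not call Chsy1, Fam20b and Chst14 (adjusted p = 0.0963, 0.142 and 0.206 without its prior), and without a filter on low counts edgeR did not call Chst14 (adjusted p = 0.0544). Of single libraries, control replicate 2 or cko replicate 1 was needed for the call of Chsy1 (adjusted p = 0.0821 and 0.0517 without them). For Fam20b these were control replicates 1 and 2 and cko replicates 1 and 3 (adjusted p = 0.0655, 0.11, 0.0638 and 0.0653). Chst14 was called only with control replicates 1, 2 and 3 and cko replicates 2 and 3 all present (adjusted p = 0.0724, 0.0706, 0.109, 0.068 and 0.12 without each).

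For heparan sulfate, the chain carried by Sdc3, 14 genes were tested, with 3 higher and 3 lower (median -0.19; under total-count scaling 5 higher, 1 lower and 0.08). Hs2st1 and Hs3st1, sulfotransferase genes, rose by 0.96 and 1.95 on the log2 scale, and the polymerase gene Ext2 by 0.51. Hs3st1 was counted 10, 21 and 38 times in control and 133, 100 and 81 times in cko libraries, a wide spread within each group but without overlap. The genes of the extracellular sulfatases Sulf1 (-0.55) and Sulf2 (-0.47) and of Extl1 (-0.69) were lower. Sulf2 and Extl1 were not called under total-count scaling (adjusted p = 0.134 and 0.139). Extl1 was not called without control replicate 3, cko replicate 1 or cko replicate 2 (adjusted p = 0.0871, 0.117 and 0.0567), nor by DESeq2 (adjusted p = 0.128).

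Receptors and ligands of chondroitin sulfate proteoglycans gave 8 tested genes, 2 higher and 1 lower (median 0.10; under total-count scaling 3 higher, 1 lower and 0.36). Besides Ptprz1, the growth factor gene Mdk (midkine) was higher by 0.57, a call lost without control replicate 2 or cko replicate 1 (adjusted p = 0.138 and 0.11) and in DESeq2 (adjusted p = 0.0785 without and 0.0775 with its prior). Cntn1, the gene of the axonal and glial adhesion molecule contactin-1, fell from 41, 64 and 60 counts in control to 11, 11 and 9 counts in cko libraries (log2 fold change -2.68, SE 0.27, adjusted p = 5.44e-10). Of 9 tested genes for proteases that cleave lecticans, 2 were higher (median 0.07; under total-count scaling 3 higher and 0.34). The larger of these changes was in Timp3, which encodes an inhibitor of such proteases and not a protease. It rose from 1556 ± 57.6 to 2759 ± 157 CPM, a log2 fold change of 0.83. The protease gene Adamts20 was higher by 0.34, with libraries that overlapped and no call without control replicate 1, control replicate 3 or cko replicate 1 (adjusted p = 0.12, 0.169 and 0.092), nor in DESeq2 with or without its prior (adjusted p = 0.101 each).

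**Figure D5:**
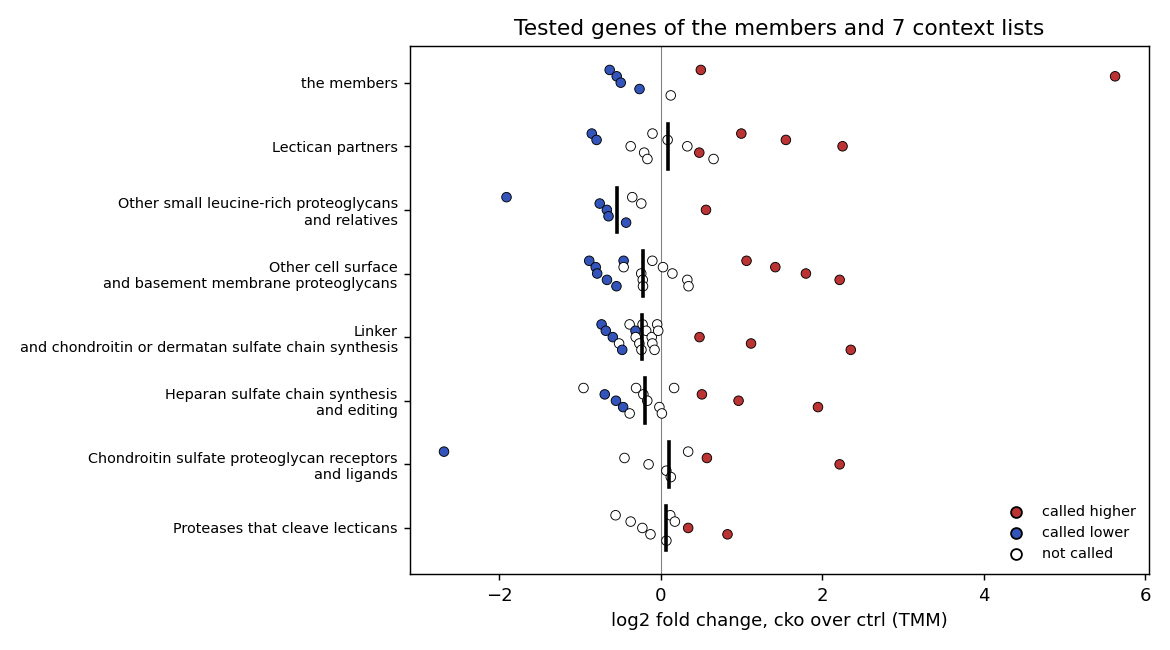
Log2 fold change (cko over control, TMM) of each tested gene of the members and of 7 related lists; red points were called higher, blue points lower and white points not called, and black bars mark the median of a list. The list of other small leucine-rich proteoglycans has a median of -0.54 with Ogn at -1.91, and Ncan at 5.62 lies to the right of all other genes plotted.

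The tested genes whose pattern over the 6 libraries came nearest to that of Ncan were Unc5c, Celf4, Crabp1, Slc1a1 and Rit2. The measure was the root mean square difference of log2 CPM after each gene had been centred on its own mean, and it ran from 0.44 for Unc5c to 0.62 for Rit2. Like Ncan, these genes were barely counted in control nerves, which follows from choosing them by nearness to the pattern of Ncan. They too passed the filter on low counts through their cko libraries alone. Unc5c had 3, 6 and 4 counts in control and 202, 118 and 186 counts in cko libraries, and Celf4 had 0, 1 and 2 counts against 68, 57 and 84. Crabp1 had 0, 4 and 4 counts against 83, 47 and 101, Slc1a1 had 0, 1 and 0 against 39, 33 and 49, and Rit2 had 1, 3 and 0 against 59, 43 and 71. With a smaller prior count only 3 of these 5 were again among the nearest.

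For the other members the nearest genes lay much closer. The measure grows with the size of a change and with the noise of low counts, so this contrast does not show that fewer genes resemble Ncan. For Sdc3 they were Rassf3, Mta1 and Adnp, at 0.03 to 0.04. For Vcan they were C2cd5, Sgms1 and Aspn (0.05 each), the last of which is itself a small leucine-rich proteoglycan. Afap1l1, Mmp14 and Eltd1 came nearest to Cspg4 (0.02 to 0.05), Cd2ap, Scn3b and Rptor to Dcn (0.02 each), Ltbp1, Dab2 and Adamts14 to Bgn (0.02 to 0.03), and Eif3b, Naa15 and Tor3a to Lum (0.02 to 0.03). With the smaller prior count 2 of the 3 genes were again among the nearest for Cspg4, and all 3 for each other of these members. The genes nearest to Lum had adjusted p from 0.372 to 0.689 and were not called. Of those nearest to Dcn, Scn3b was called lower and Cd2ap and Rptor were not called (adjusted p = 0.11 and 0.267).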

How the data were processed

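RNA-Seq counts of 6 libraries were used, grouped by the genotype in the labels. The authors aligned the reads to mm9, counted uniquely mapped reads per gene with HTSeq and deposited raw counts; the submitters' notes name mm10 as well, and strand setting and annotation are not given in the sources used here. Counts were analysed in R 4.3.3 with edgeR 4.0.16 (filterByExpr, TMM, robust quasi-likelihood test, genotype as the only term, Benjamini-Hochberg adjustment over 11371 genes, calls at an adjusted p of at most 0.05). Standard errors were derived from the F statistic. Gene positions and lengths are from GENCODE vM1 (mm9), and promoters from RefSeq. The marker Adgre1 was found under an older symbol. Alternatives were RLE or total-count scaling, DESeq2 1.42.0 with and without its prior, other filters, the limits of the study, the replicate number as a block, a fit without robust estimation, and each library left out.

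All members were named, and of each related list up to 4 genes called higher and 4 called lower with the smallest p, of each marker list the most abundant gene and markers at 0 counts (some items are not reported here), and the 5 genes nearest to Ncan and 3 nearest to each other tested member (prior count of 2). The members and lists were chosen with earlier results of these data known. The code was tested on simulated counts.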

Additional observations from a re-analysis of the deposited data

How the results depend on the processing

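The count of members called lower (4) was 2 under total-count scaling and 0 under the limits of the study (a log2 change of 0.8 or more in size and a base mean of 20 or more), and that of members called higher (2) was 1 under those limits. The limits were applied here to the edgeR calls, whereas the study applied them to DESeq2, so the resulting counts of genes are not those the study reported. The genes called higher (1757) numbered 3740 under total-count scaling, 1110 and 1123 in DESeq2 without and with its prior and 415 under the limits of the study; the genes called lower (1841) numbered 886, 1178, 1191 and 567 in the same order. Under total-count scaling Dcn turned to 0.00244 (adjusted p = 0.982), Cspg4 was no longer called at -0.28, and Lum was called at 0.39; this scaling shifts the median gene to 0.26. The cause of the lower counts in DESeq2 was not tested. Relative to fibroblast marker counts, an alternative chosen after the data had been seen and with too few libraries to pass an exact test, the log2 ratio of group means was 0.24 for Dcn and 0.0114 for Bgn, both turned in sign but below the median gene, which this measure shifts to 0.50, -0.14 for Vcan, -0.0562 for Cspg4, 0.63 for Lum, 1.01 for Sdc3 and 6.27 for Ncan. For Ncan, Vcan, Bgn and Sdc3 each other alternative with a test kept direction and its call at an adjusted p of at most 0.05, and leaving out single libraries moved Ncan between 5.17 and 7.16, while DESeq2 with its prior gave 4.14. Among the other results, 476 values kept their direction and call or stayed within the replicate spread, 53 lost their call, and 5 moved, 4 of them levels per kb with the longest transcript as length.

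The replicate numbers do not pair the libraries. Deviations of same-numbered libraries correlated at -0.095, -0.015 and -0.062, and with the replicate number as a block Ncan stood at 5.61 and the members counted 2 higher and 4 lower. Depth limits Bcan, Acan, Cspg5 and the control level of Ncan, where 1 count is worth up to 0.818 CPM.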
